A study of Mus musculus with 26 samples.

Results

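The clustered histone genes are the members of the Hist1, Hist2, Hist3 and Hist4 loci, taken as every protein-coding gene of GENCODE M21 whose symbol starts with one of those names. They numbered 67 of the 55471 genes in the count table: 6 of H1, 18 of H2A, 18 of H2B, 12 of H3 and 13 of H4. Of these, 54 lie in Hist1 on chromosome 13, 10 in Hist2 on chromosome 3, 2 in Hist3 on chromosome 11 and 1 is Hist4h4 on chromosome 6 (GRCm38). RNA-seq reads were counted per gene in 26 libraries from KH2, an embryonic stem cell (ESC) line of the mouse, sampled at days 0, 2 and 4 of differentiation induced with retinoic acid. The genotypes are a NAP1L1 alpha knock-out (alphaKO), a NAP1L1 knock-out (fullKO) and wild type (WT). The series describes 2 knockout lines, so each knockout genotype is 1 line. Each group had 3 libraries, except fullKO at day 0 with 2. NAP1L1 is a chaperone that binds histones H2A and H2B.

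Histone H1 binds the linker DNA between nucleosomes, and H2A, H2B, H3 and H4 form the nucleosome core. The clustered genes are transcribed mainly in S phase to package newly copied DNA. Most of their mRNA is cut just after a conserved stem-loop, which the stem-loop binding protein SLBP recognises, and carries no poly(A) tail. Some of these genes also make a longer, spliced or polyadenylated transcript, which is known above all from cells that have left the cell cycle. The libraries were made with a kit that captures mRNA by its poly(A) tail, so the counts are of polyadenylated transcripts and of tailless RNA carried through the selection. They do not measure the amount of S-phase histone mRNA.

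The stem-loop was searched as 16 bases: a 6-base arm that starts GG and ends in T, a 4-base loop that starts with T, and the reverse complement of the arm. It was present in the annotated transcript of 46 of the 67 histone genes and in 187 of all 55450 annotated genes (0.337%). The sequences below are shown because Hist1h1c, Hist1h4i and the Hist3 pair, among the genes with the highest levels, carry both this element and a poly(A) signal beyond it, and the other 3 genes show the forms of the element. Capitals mark the 2 arms of the stem-loop, and all sequences are GRCm38, 5′ to 3′ along the transcript.
Hist1h1c stem-loop, chr13:23739507-23739532, plus strand: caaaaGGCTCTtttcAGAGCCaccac
Hist3h2a stem-loop, chr11:58955167-58955192, plus strand: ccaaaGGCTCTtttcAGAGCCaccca
Hist3h2ba stem-loop, chr11:58949344-58949369, plus strand: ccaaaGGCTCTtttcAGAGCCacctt
Hist1h4i stem-loop, chr13:22040961-22040986, minus strand: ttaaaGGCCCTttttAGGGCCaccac
Hist1h4d stem-loop, chr13:23581945-23581970, plus strand: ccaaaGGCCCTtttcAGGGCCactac
Hist1h3c stem-loop, chr13:23745042-23745067, minus strand: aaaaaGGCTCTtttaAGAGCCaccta
Hist1h3g stem-loop, chr13:23535884-23535909, plus strand: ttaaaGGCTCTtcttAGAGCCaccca
The arms separated H4 from the other classes, which all had the arm GGCTCT. Of the 46 matched genes, 26 had the form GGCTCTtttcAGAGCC, found in 3 H1, 10 H2A, 8 H2B and 5 H3 genes and in no H4 gene. All 12 matched H4 genes had an arm ending in CCT: 7 had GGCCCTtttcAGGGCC, 2 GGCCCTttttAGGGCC, 2 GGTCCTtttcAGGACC and 1 GGCCCTtctcAGGGCC.

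The poly(A) signals AATAAA and ATTAAA were searched in the last 50 bases of the annotated transcript and were present in 16 of 67 genes. Capitals mark the signal in the sequences that follow, which are those of the 3 genes with the highest levels per length and of 3 others described further on.
Hist1h1c poly(A) signal, chr13:23740336-23740365, plus strand: gcttctAATAAAaagcgtttagttttcatt
Hist1h4i poly(A) signal, chr13:22040636-22040662, minus strand: gtttacATTAAAagtattctatgctaa
Hist1h2bc poly(A) signal, chr13:23692456-23692485, plus strand: atatatAATAAAtgtcatgtaaagcaaaaa
Hist3h2a poly(A) signal, chr11:58956791-58956820, plus strand: atgcccAATAAAataagagtacgtgtataa
Hist3h2ba poly(A) signal, chr11:58949501-58949530, plus strand: ggtattAATAAAtttggttcaattttggcc
Hist2h2be poly(A) signal, chr3:96223711-96223738, plus strand: attattAATAAAgttaccgattagtttc
The annotated Hist1h1c transcript continued for 840 bases past its stem-loop and ended 20 bases after the signal. That of Hist1h4i continued for 330 bases past the stem-loop and ended 15 bases after the signal. Those of Hist3h2a and Hist3h2ba ran 1643 and 169 bases past the stem-loop. Hist1h2bc has a spliced transcript with exons of 423 and 733 bases, an intron of 7554 bases and no stem-loop match. Its signal lies inside the annotated last exon, and RefSeq ends the gene 13 bases after it. Hist2h2be has no perfect stem-loop match, and its transcript ended 16 bases after the signal.

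Reads from all 67 genes together were 0.00262% to 0.00593% of the counts of a library, or 487 to 1086 reads. Total counts were 13537267 to 20569706 per library. No read was counted in any library for 9 genes, 28 had 1 to 99 reads over all 26 libraries, and 30 had 100 or more. The low-count filter kept 30 genes for testing: 5 of 6 H1, 3 of 18 H2A, 9 of 18 H2B, 8 of 12 H3 and 5 of 13 H4 genes. The 37 others are given only by their level. How reads could be assigned to a gene was limited by overlap and by shared sequence. The exons of all 18 H2A genes overlap those of another gene, in most cases a predicted gene on the other strand, and the strand setting used in counting is not known. The median share of 50-base windows that also occur in another gene was 69% in the genes that were not tested and 26.9% in those that were. Of the 9 genes with no read, 8 shared 30% or more of their windows with another gene. The remaining one, Hist2h2bb, shared none and overlaps exons of other genes. How the counting treated reads with several matches is not known, so these zeros are not read as absence.

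Levels were highest for Hist1h1c, which encodes the linker histone H1.2, at a mean of 7.70 CPM per kb of exon over the 26 libraries (CPM, counts scaled by the TMM-adjusted library size to a common total). Hist1h4i followed with 7.15 and Hist1h2bc with 6.11 CPM per kb. Their order differed between groups. Hist1h1c was highest in every group at day 4 and in WT at day 2, Hist1h2bc in alphaKO and WT at day 0, and Hist1h4i in alphaKO at day 2 and in fullKO at days 0 and 2. The next over all libraries were Hist3h2ba with 2.03, Hist1h1a with 1.59, Hist1h4k with 1.03 and Hist3h2a with 1.02 CPM per kb. Hist1h1c gave 26.7% of all reads of the 67 genes, Hist1h2bc 15.8% and Hist1h4i 11.8%. The genes also differed by where their annotated transcript ends. Of the 23 genes whose transcript runs 100 bases or more past the stem-loop, 18 passed the filter, with a median of 0.405 CPM per kb over all 23. Of the 23 that end within 100 bases of the stem-loop, 7 passed, with a median of 0.258. Of the 13 whose annotation ends at the stop codon, 2 passed, with a median of 0.218. These medians also follow the annotation, since reads past the end of a short gene model are not counted, and the last group shared a median of 71.5% of its windows with other genes.

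**Figure D1:**
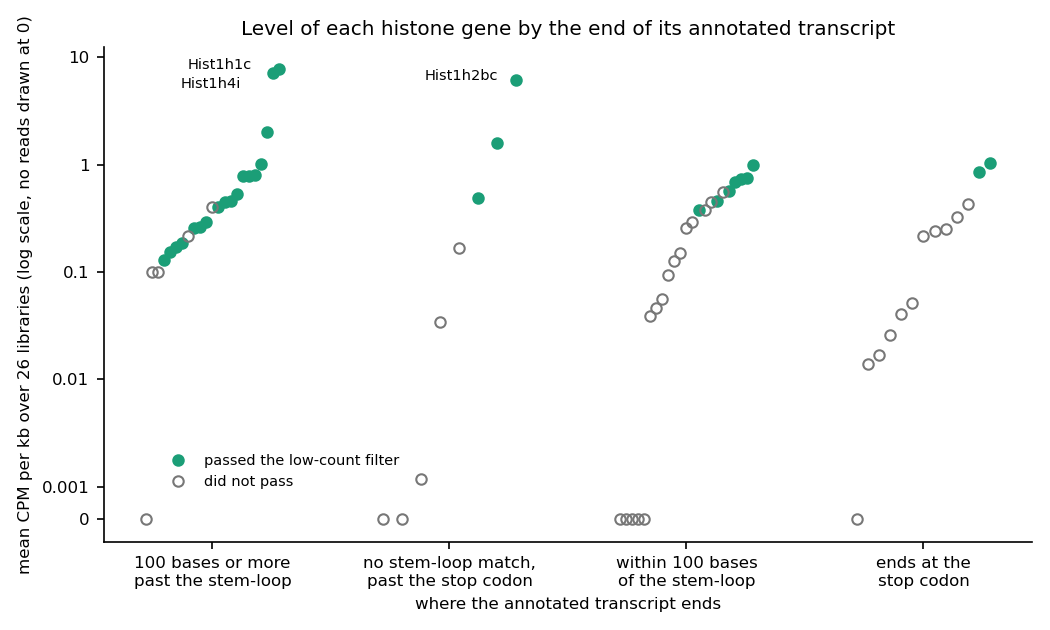
Mean level of each of the 67 genes over 26 libraries, in CPM per kb on a log scale, grouped by the end of the annotated transcript, with genes that had no read drawn at 0. Filled points passed the low-count filter. Hist1h1c and Hist1h4i stand at 7.70 and 7.15 CPM per kb among the genes that run past the stem-loop, and Hist1h2bc at 6.11 among those with no stem-loop match.

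One library stood apart. The second fullKO library of day 0 had 16.1 CPM of Rn7sk, a short nuclear RNA with no poly(A) tail, against 1.72 to 6.93 CPM in the other 25. Its ribosomal RNA genes summed to 3215 CPM, against 520 to 2143 CPM in the others. The 64 histone genes other than Hist1h1c, Hist1h2bc and Hist1h4i summed to 28.9 CPM in it and to 15.6 CPM in the first fullKO library of that day. Of the 30 tested genes, 21 were higher in the second library than in the first. The first fullKO library of day 0 had 3.57 CPM of Rn7sk, against at most 3.26 in alphaKO and 3.01 in WT that day. Its ribosomal RNA genes summed to 825 CPM, against at most 627 in alphaKO and 700 in WT. Carry-over of tailless RNA was not tested as a part of any difference. The second fullKO library is part of the fullKO sums and medians of day 0. Without it the median log2 fold change of the 30 tested genes in fullKO over WT at day 0 was 0.05 instead of 0.65. The targeted gene Nap1l1 averaged 599 CPM in alphaKO, 399 in fullKO and 1025 in WT at day 0, and 343 in alphaKO, 227 in fullKO and 393 in WT at day 4, with no overlap between knockout and WT libraries at any day.

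The 67 genes summed to less in alphaKO than in WT at days 0 and 4, and to less in fullKO than in WT at day 4. At day 0 the sums were 28.5, 28.6 and 32.8 CPM in alphaKO, 31.1 and 43.4 in fullKO, and 36.7, 49.4 and 43.4 in WT. At day 2 they were 47.1, 45.5 and 53.1 in alphaKO, 54.6, 53.3 and 54.1 in fullKO, and 53.5, 57.1 and 53.5 in WT. At day 4 they were 40.5, 40.4 and 39.2 in alphaKO, 33.4, 34.6 and 37.6 in fullKO, and 53.3, 57.9 and 52.2 in WT. The alphaKO and WT libraries did not overlap on any day. Those of fullKO lay below all of WT at day 4 and overlapped WT at days 0 and 2.

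Without Hist1h1c, Hist1h2bc and Hist1h4i, the remaining 64 genes summed at day 4 to 19.1 ± 0.87 CPM in alphaKO, 16.9 ± 1.46 in fullKO and 18.3 ± 0.95 in WT (SD, n = 3 each). Each knockout line overlapped WT on that day, and all 3 alphaKO libraries lay above all 3 fullKO libraries. At day 0 the 64 genes summed to 11.2 ± 0.605 CPM in alphaKO and 15.4 ± 2.4 in WT, without overlap. The fullKO libraries of day 0, at 22.3 ± 9.43 CPM (n = 2), overlapped WT. At day 2 the sums were 24.2 ± 1.47 CPM in alphaKO, 30.1 ± 1.54 in fullKO and 24.5 ± 1.44 in WT. Every fullKO library of day 2 lay above every alphaKO and WT library, and alphaKO overlapped WT. The H1 genes summed at day 4 to 16.6 ± 0.47 CPM in alphaKO, 12.3 ± 0.70 in fullKO and 26.4 ± 1.70 in WT. The H3 genes at day 0 stood at 2.14 ± 0.03 CPM in alphaKO (n = 3), 5.37 ± 1.28 in fullKO (n = 2) and 1.87 ± 0.56 in WT (n = 3). The first fullKO library alone had 4.46 CPM, above every alphaKO and WT library of that day. It also lay above them in Rn7sk and ribosomal RNA, and the part of tailless RNA was not tested.

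**Figure D2:**
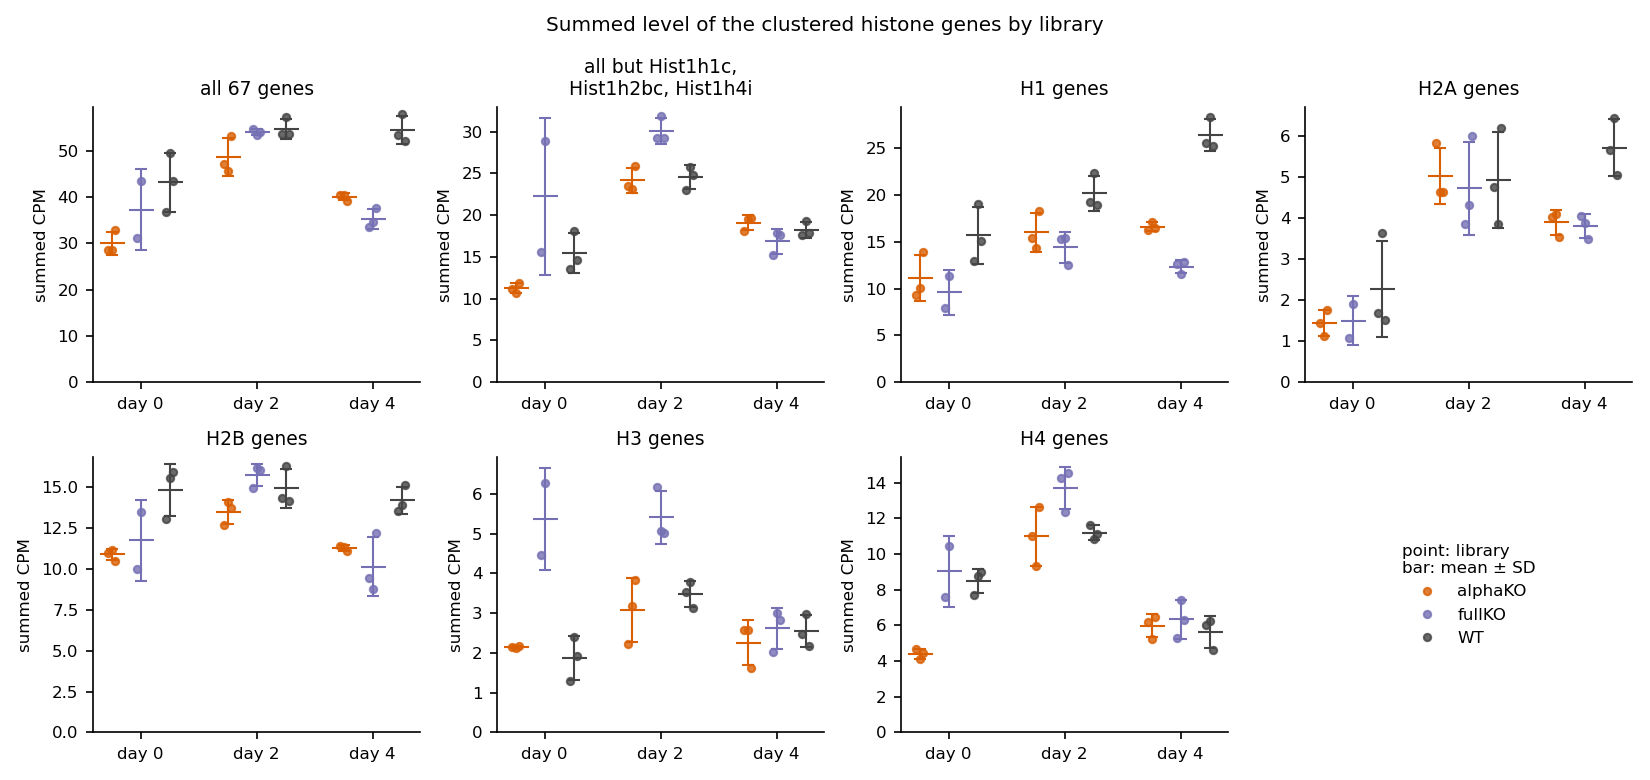
Summed CPM of the clustered histone genes by library for all 67 genes, for the 64 outside the highest 3 and for each class, at days 0, 2 and 4. Points are libraries and bars are the mean ± SD. At day 4 the sum over all 67 genes is 52.2 to 57.9 CPM in WT, above all 6 knockout libraries, and without the highest 3 genes each knockout line overlaps WT while alphaKO lies above fullKO.

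Hist1h1c was lower in both knockout lines on every day. At day 0 it had 6.86, 7.28 and 10.8 CPM in alphaKO, 3.99 and 3.43 in fullKO, and 9.23, 15.4 and 11.7 in WT. The fullKO libraries lay below all others, and those of alphaKO and WT overlapped. At day 2 the values were 10.9, 10.2 and 11.7 CPM in alphaKO, 9.83, 7.56 and 8.37 in fullKO, and 15.9, 16.4 and 15 in WT. At day 4 they were 13.2, 13.5 and 13.1 CPM in alphaKO, 10.7, 7.90 and 10.3 in fullKO, and 21.9, 25.2 and 21.9 in WT. On both later days every knockout library lay below every WT library. The log2 fold change of alphaKO over WT was -0.53 ± 0.15 (SE) at day 0, -0.53 ± 0.14 at day 2 and -0.80 ± 0.13 at day 4. That of fullKO over WT was -1.70 ± 0.20, -0.88 ± 0.14 and -1.26 ± 0.14 on the same days. All 6 changes passed edgeR's quasi-likelihood test, with adjusted p from 1.2e-10 to 0.0034 (Benjamini-Hochberg over 18412 genes). The alphaKO call at day 0 was lost without the second WT library, at a log2 fold change of -0.32 and an adjusted p of 0.113. Both comparisons use the same WT libraries. The lines also differed directly, with Hist1h1c higher in alphaKO than in fullKO by a log2 fold change of 1.17 ± 0.21 at day 0 and 0.47 ± 0.14 at day 4. The day 4 difference was lost without the second fullKO library, at 0.33 with an adjusted p of 0.114.

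Markers of fibroblasts moved with Hist1h1c at day 0. The summed level of 10 fibroblast genes, among them the collagens Col1a1 and Col3a1, ranged from 1185 to 1844 CPM in alphaKO, from 245 to 368 in fullKO and from 2255 to 3008 in WT at day 0. In these 8 libraries the order of Hist1h1c within each genotype was the order of that sum. All 10 genes fell in alphaKO and in fullKO at day 0. At day 2 the sums ranged from 233 to 294 CPM in alphaKO, from 103 to 113 in fullKO and from 676 to 739 in WT, below their day 0 levels in every genotype, while Hist1h1c was above its day 0 mean in every genotype. At day 4 they ranged from 733 to 830 CPM in alphaKO, from 598 to 641 in fullKO and from 1487 to 1582 in WT. Markers of embryonic stem cells, 8 genes such as Nanog and Zfp42, differed between the genotypes as well. Their summed level ranged from 4775 to 4937 CPM in alphaKO, from 4755 to 4792 in fullKO and from 3482 to 3592 in WT at day 0. At day 2 it ranged from 659 to 693 CPM in alphaKO, from 1066 to 1182 in fullKO and from 410 to 422 in WT. At day 4 it ranged from 294 to 314 CPM in alphaKO, from 417 to 439 in fullKO, and was at most 112 in WT, and on each day every knockout library lay above every WT library. The part of fibroblasts or of stem cells in any difference was not tested, and in bulk RNA fewer cells of a type and less RNA per cell cannot be told apart.

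**Figure D3:**
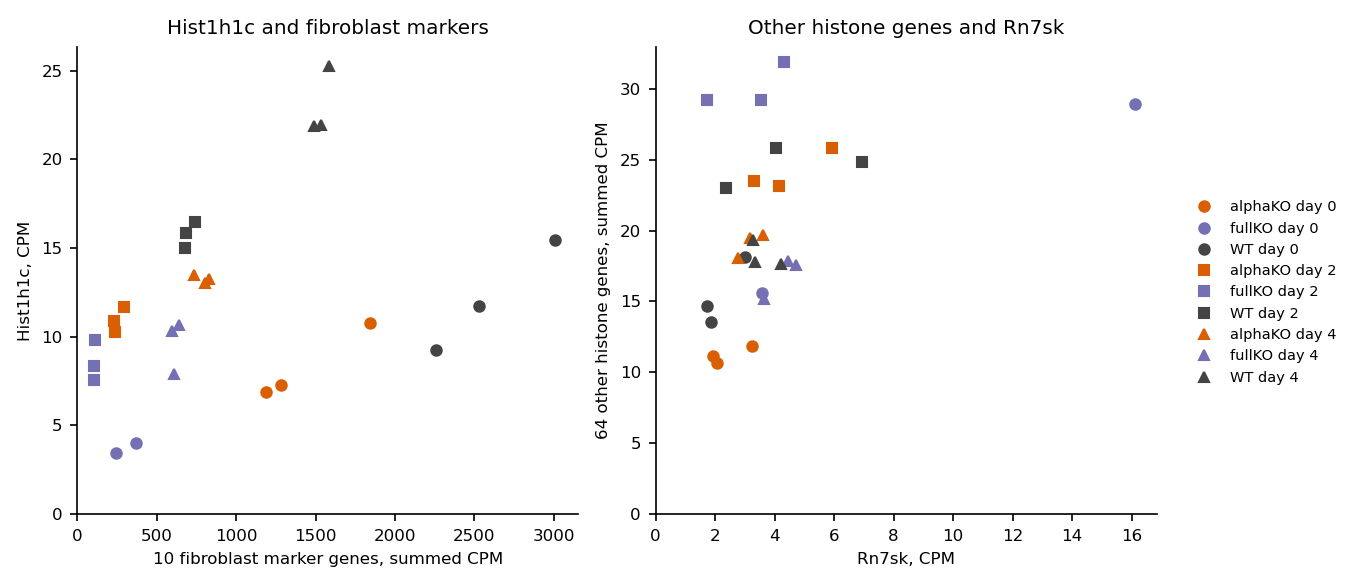
Left, Hist1h1c against the summed level of 10 fibroblast marker genes, both in CPM, in 26 libraries. Right, the summed CPM of the 64 histone genes outside the highest 3 against Rn7sk. Colours give the genotype and shapes the day. The second fullKO library of day 0 is the point at 16.1 CPM of Rn7sk and 28.9 CPM of histone genes.

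Hist1h2bc, an H2B gene, was lower in both knockout lines at days 0 and 4. At day 0 it had 7.38, 7.63 and 7.55 CPM in alphaKO, 6.49 and 6.14 in fullKO, and 8.70, 10.6 and 11.4 in WT. At day 4 the values were 5.23, 3.95 and 3.02 CPM in alphaKO, 3.83, 3.93 and 5.86 in fullKO, and 9.36, 9.35 and 9.71 in WT. All knockout libraries lay below all WT libraries on both days. The log2 fold change over WT was -0.44 ± 0.15 at day 0 and -1.22 ± 0.16 at day 4 in alphaKO (adjusted p 0.015 and 1.9e-08), and -0.69 ± 0.17 and -1.06 ± 0.16 in fullKO (0.0014 and 2.4e-07). The alphaKO call at day 0 was lost without the third WT library, at -0.36 with an adjusted p of 0.0906. At day 2 the fold changes were -0.30 ± 0.15 in alphaKO and -0.28 ± 0.15 in fullKO, and neither passed the test.

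Hist1h4i, an H4 gene, was lower in alphaKO at day 0 and higher in fullKO at day 2. At day 0 it had 3.14, 2.99 and 2.58 CPM in alphaKO, 5 and 4.89 in fullKO, and 5.2, 5.23 and 5.61 in WT. The alphaKO libraries lay below all others, with a log2 fold change of -0.88 ± 0.18 over WT (adjusted p 8.6e-05) and -0.77 ± 0.20 over fullKO (adjusted p 0.0027). At day 2 it had 6.79, 6.20 and 8.04 CPM in alphaKO, 8.81, 7.51 and 9.69 in fullKO, and 6.38, 6.43 and 6.25 in WT. The fullKO rise of 0.45 ± 0.15 (adjusted p 0.014) was lost without the third fullKO library, at 0.36 with an adjusted p of 0.0832.

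The Hist3 pair on chromosome 11, an H2A and an H2B gene, moved differently. Hist3h2a at day 4 had 2.52, 2.14 and 2.06 CPM in alphaKO, 2.78, 2.48 and 1.97 in fullKO, and 5.08, 5.12 and 3.96 in WT. It fell by 1.07 ± 0.25 on the log2 scale in alphaKO and by 0.96 ± 0.24 in fullKO (adjusted p 0.00025 and 0.00078). The annotation has exons of Trim17 and of a predicted gene over it, so some of its reads may be theirs. Hist3h2ba at day 4 had 2.27, 3.07 and 2.7 CPM in alphaKO, 1.33, 0.775 and 1.24 in fullKO, and 1.31, 0.953 and 1.15 in WT. The alphaKO libraries lay above all others, with a log2 fold change of 1.24 ± 0.32 over WT and 1.27 ± 0.32 over fullKO (adjusted p 0.001 and 0.0014). At day 0 Hist3h2ba was lower in alphaKO, with 0.116, 0.235 and 0.465 CPM in alphaKO and 0.701, 0.799 and 0.462 in WT, and the groups overlapped. That change of -1.22 ± 0.48 (adjusted p 0.042) was lost in 4 of the 6 fits that left out a library. Without the first alphaKO library it was -0.87 with an adjusted p of 0.192. The call was also lost with no low-count filter (adjusted p 0.0966).

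**Figure D4:**
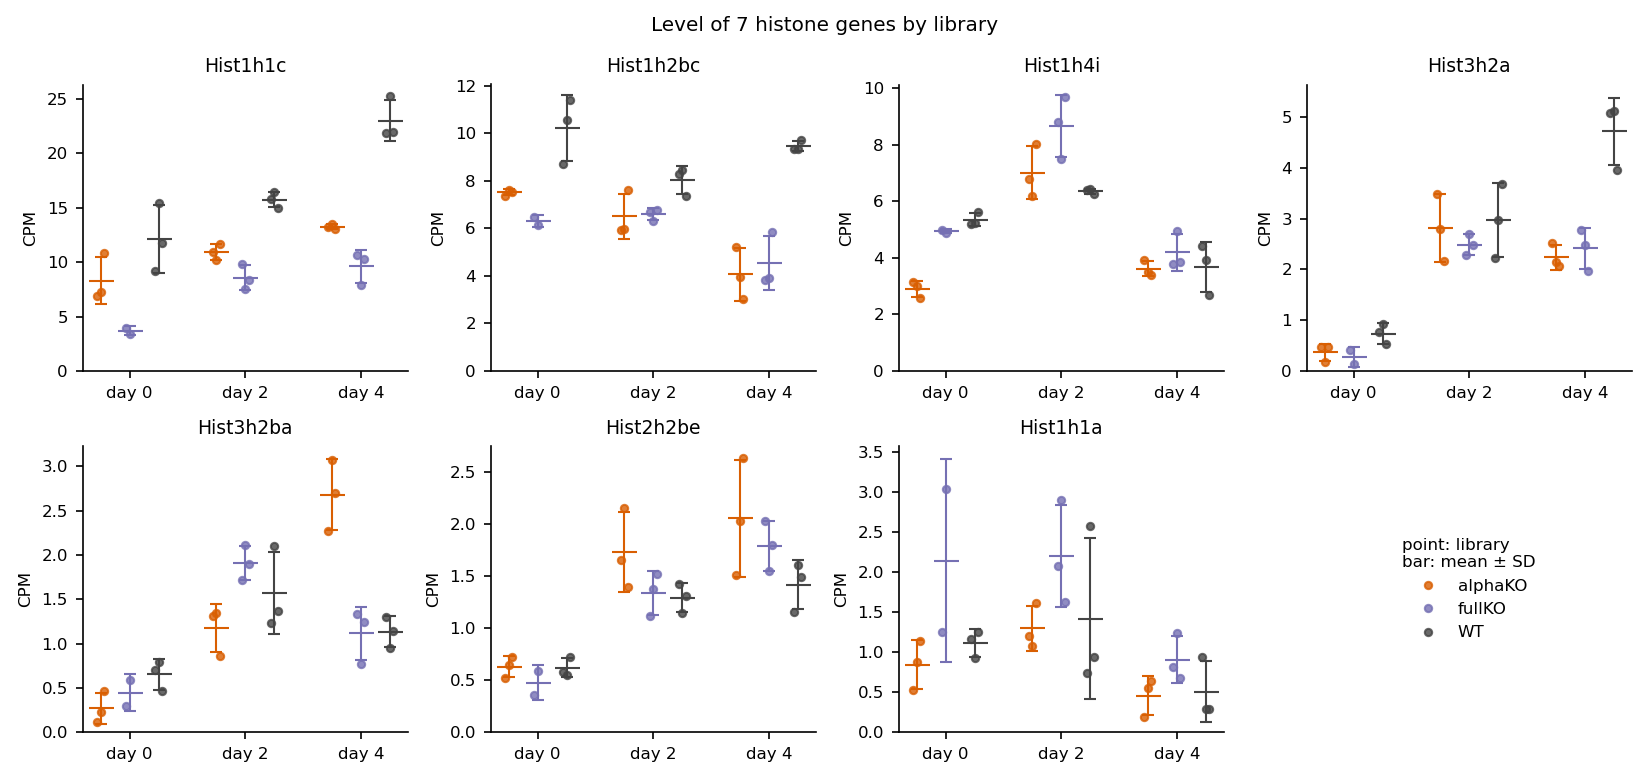
CPM by library of 7 clustered histone genes at days 0, 2 and 4 in alphaKO, fullKO and WT. Points are libraries and bars are the mean ± SD. Hist1h1c in WT reaches 21.9 to 25.2 CPM at day 4 against at most 13.5 in the knockout libraries, and Hist3h2ba is highest in alphaKO at day 4.

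Against WT, the share of histone genes called was below that of all genes on every day. In alphaKO at day 0, 4 of 30 tested histone genes were called, all lower, where 38.6% of all tested genes were called, 17.7% higher and 20.9% lower. Their median log2 fold change was -0.45, against -0.03 over all genes. At day 2, 1 of 30 was called (Hist1h1c), where 40.2% of all genes were, 19.9% higher and 20.3% lower, and the median was -0.13 against 0.01. At day 4, 5 of 30 were called, 4 lower and 1 higher, where 52.7% of all genes were, 28.7% higher and 24% lower, and the median was 0.22 against 0.06. In fullKO at day 0, 7 of 30 were called, 3 lower and 4 higher, where 33.9% of all genes were, 16.2% higher and 17.7% lower, with a median of 0.65 against -0.01 that includes the library that stood apart. At day 2, 3 of 30 were called, 1 lower and 2 higher, where 47.6% were, 23.8% higher and 23.8% lower, with a median of 0.29 against 0.02. At day 4, 8 of 30 were called, 5 lower and 3 higher, where 49.6% were, 25.1% higher and 24.5% lower, with a median of 0.20 against 0.02. Read numbers were low: of the 30 tested genes, 15 reached a mean of 1 CPM in a group and 3 reached 5 CPM.

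**Figure D5:**
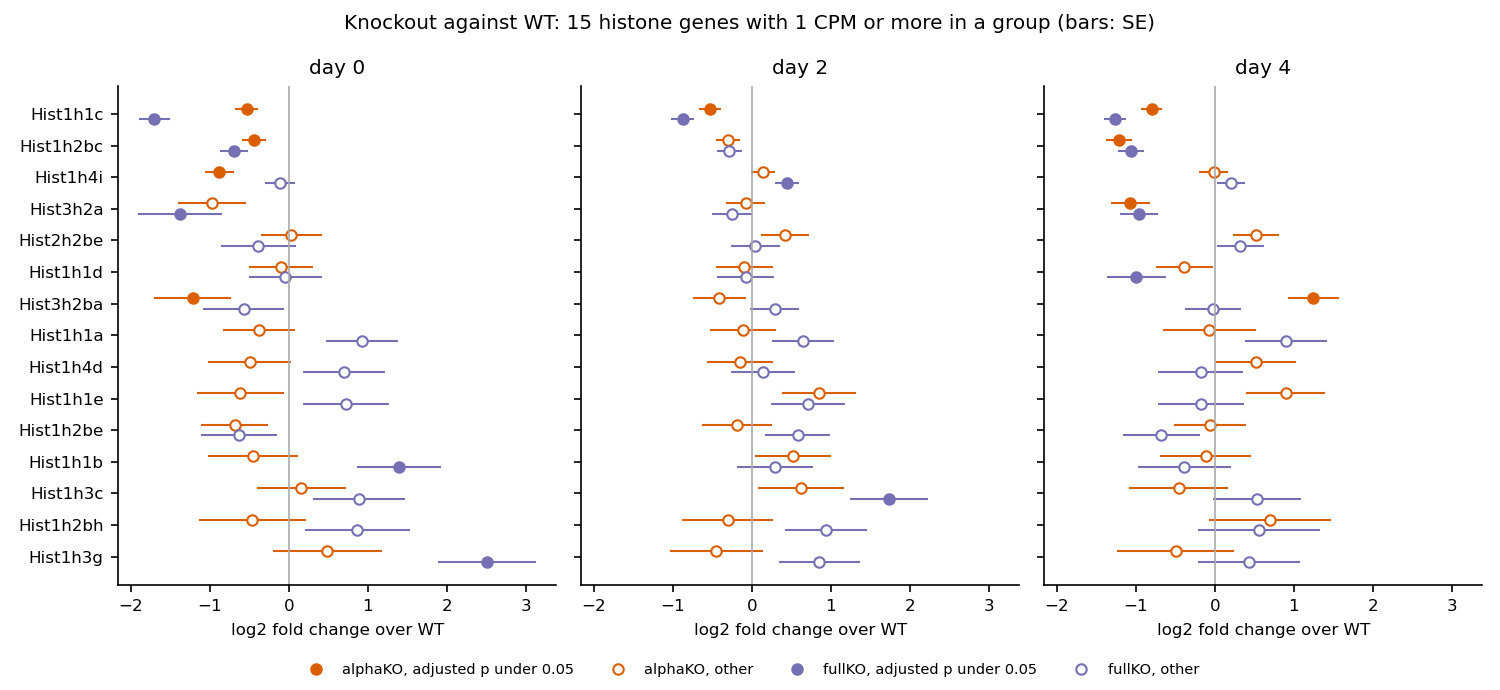
Log2 fold change over WT, with SE, of alphaKO and fullKO for the 15 clustered histone genes that reached a mean of 1 CPM in a group, at days 0, 2 and 4, with the genes in order of mean CPM. Filled points passed an adjusted p of 0.05. Hist1h1c is filled in both lines on all 3 days, and the error bars widen down the list.

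Of the 4 rises of fullKO at day 0, 1 remained called without the library that stood apart. The 4 genes were Hist1h1b, which encodes H1.5, and the H3 genes Hist1h3a, Hist1h3b and Hist1h3g. Hist1h3g had 1.31 and 0.859 CPM in fullKO and 0.175, 0.246 and 0.132 in WT, from 22 and 13 reads against 3, 4 and 2. Its log2 fold change was 2.51 ± 0.62 (adjusted p 0.0012) with both libraries and 2.78 without the second one. Its highest group mean, 1.08 CPM, was that of fullKO at day 0, as was that of Hist1h1b, 1.37 CPM. The low-count filter and the 1 CPM rule for naming genes can favour a rise there. No conclusion is therefore drawn from the direction of either. Hist1h1b had 0.892 and 1.85 CPM in fullKO and 0.467, 0.799 and 0.264 in WT. Its log2 fold change of 1.39 ± 0.54 became 0.79 without the second library, with an adjusted p of 0.462. Hist1h3a had 2.43 with both libraries and 1.45 without the second (adjusted p 0.451). Hist1h3b had 2.10 with both and 1.78 without the second (adjusted p 0.193), and its call was also lost without the first fullKO library, at 2.34 with an adjusted p of 0.0527. The fall of Hist3h2a at day 0 was lost as well, at -1.38 ± 0.53 with both libraries and -0.82 without (adjusted p 0.368). The falls of Hist1h1c and Hist1h2bc held, at -1.60 and -0.65. Without that library the remaining fullKO library is assumed to vary as the other groups do. The remaining library also lay above every alphaKO and WT library of day 0 in Rn7sk and ribosomal RNA. The part of tailless RNA in the rises was not tested.

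At day 2 the H3 gene Hist1h3c was higher in fullKO, with 1.77, 1.08 and 1.68 CPM in fullKO and 0.433, 0.542 and 0.375 in WT. These libraries did not overlap, and the log2 fold change was 1.74 ± 0.49 (adjusted p 0.0031). At day 4 the H1 gene Hist1h1d was lower in fullKO, with 0.406, 1.19 and 1.07 CPM in fullKO and 1.96, 1.13 and 2.30 in WT. The groups overlapped, and the change of -0.99 ± 0.38 (adjusted p 0.025) was lost in 3 of the 6 fits that left out a library. Without the first fullKO library it was -0.66 with an adjusted p of 0.171. The H3 gene Hist2h3c2, named here after its values were seen, had 3, 2 and 2 reads in alphaKO at day 4, 0, 1 and 0 in fullKO, and 10, 7 and 11 in WT. It was called lower in both lines at that day. The low-count filter kept the gene in only 4 of the 6 fits that left out a library. The alphaKO call was lost in 2 of these 4, as without the second alphaKO library (log2 fold change -1.84, adjusted p 0.085). The fullKO call was lost in none of them. The gene had 56 reads over all 26 libraries, and its highest group mean, 0.591 CPM, was that of WT at day 4. Passing the filter through that group favours a fall against it, so no conclusion is drawn from the direction of these calls. Hist1h2bb, Hist1h2bj and Hist1h3a, also outside the rule, were called higher in fullKO at day 4. Their highest counts in any of the 26 libraries were 10, 21 and 14 reads. Leaving out 1 library lost the call of Hist1h2bb in 3 of 6 fits, of Hist1h2bj in 4 of 6 and of Hist1h3a in 2 of 5. Without the third WT library the log2 fold changes were 2.83 for Hist1h2bb and 1.63 for Hist1h3a (adjusted p 0.0942 and 0.134). Without the third fullKO library that of Hist1h2bj was 2.60 (adjusted p 0.146).

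The knockout lines were also compared with each other. Between alphaKO and fullKO at day 0, 6 of 30 histone genes were called, 5 lower and 1 higher in alphaKO, where 29% of all genes were called, 14.4% higher and 14.6% lower. Hist1h1a, which encodes H1.1, stood at 0.523, 0.881 and 1.14 CPM in alphaKO, against 1.25 and 3.04 CPM in fullKO, with no overlap. Its change of -1.31 ± 0.46 (adjusted p 0.028) became -0.54 without the second fullKO library. Without that library Hist1h1b and Hist1h3e changed by -1.24 and -1.62, against -1.84 and -2.42 with both. Hist1h1c, Hist1h3g and Hist1h4i changed by 1.07, -2.28 and -0.78 without it. Hist1h3g changed by -1.65 without the first fullKO library, against -2.02 with both. These fits rest on 1 fullKO library. Of the 6 calls, only those of Hist1h1c and Hist1h4i held in every fit that left out a library. That of Hist1h1a was also lost with DESeq2 (adjusted p 0.06). The highest group mean of Hist1h3g was that of fullKO at day 0, so no conclusion is drawn from its direction. At day 2 edgeR called none of 30, with 6 at an unadjusted p under 0.05, and DESeq2 called none, where 25.3% of all genes were called by edgeR, 13% higher and 12.3% lower. At day 4, 2 were called, Hist1h1c and Hist3h2ba, both higher in alphaKO, where 32.7% of all genes were, 17.4% higher and 15.4% lower.

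From day 0 to day 2 the histone genes leaned upwards in each genotype. In alphaKO 12 of 30 were called, all higher, where 68% of all genes were called, 34.5% higher and 33.5% lower. In fullKO 7 were called, all higher, where 65% of all genes were called, 33.5% higher and 31.4% lower. In WT 8 were called, 7 higher and 1 lower, where 70.7% were, 36.7% higher and 34% lower. The median log2 fold change was 0.96 in alphaKO (0.04 over all genes), 0.52 in fullKO (0.07) and 0.68 in WT (0.06). Of 20 genes for DNA replication factors, such as the helicase subunit Mcm3 and the licensing factor Cdt1, 17 fell in alphaKO, 17 fell and 1 rose in fullKO, and 19 fell in WT between these days. The summed level of annotated ribosomal RNA genes was higher at day 2 than at day 0 in alphaKO (1026 to 1838 against 570 to 627 CPM) and in WT (746 to 1594 against 520 to 700 CPM), and Rn7sk was called higher in both. In fullKO, whose day 0 holds the library that stood apart, Rn7sk was called lower. Their part in the rise was not tested. Without the library that stood apart, 10 histone genes were called in fullKO, and the median was 0.85.

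Hist3h2a had the largest rise of the genes above 1 CPM at day 2 in each genotype. It had 3.48, 2.80 and 2.16 CPM at day 2 against 0.465, 0.176 and 0.465 at day 0 in alphaKO. In fullKO it had 2.28, 2.7 and 2.47 CPM against 0.416 and 0.132, and in WT 2.23, 2.98 and 3.69 CPM against 0.759, 0.922 and 0.528. No day 2 library overlapped a day 0 library of its genotype. The log2 fold change was 2.89 ± 0.34 in alphaKO, 3.11 ± 0.44 in fullKO and 1.99 ± 0.31 in WT (adjusted p 3.8e-10, 3e-08 and 2.1e-07). Its neighbour Hist3h2ba rose by 2.05 ± 0.43 in alphaKO, 2.10 ± 0.44 in fullKO and 1.24 ± 0.37 in WT. The H2B gene Hist2h2be on chromosome 3 rose by 1.45 ± 0.33 in alphaKO, 1.49 ± 0.42 in fullKO and 1.06 ± 0.36 in WT. The fullKO rise of Hist2h2be was lost without the first fullKO library of day 0, at 1.17 with an adjusted p of 0.0562. Without the second fullKO library of day 0, the fullKO values were 2.54 for Hist3h2a, 2.64 for Hist3h2ba and 1.87 for Hist2h2be, all still called. Hist1h4i rose by 1.27 ± 0.17 in alphaKO and 0.81 ± 0.18 in fullKO, and its WT libraries had 6.38, 6.43 and 6.25 CPM at day 2 against 5.2, 5.23 and 5.61 at day 0 without a call. Hist1h1c rose by 0.38 ± 0.15 in alphaKO, 1.20 ± 0.20 in fullKO and 0.38 ± 0.14 in WT. The alphaKO rise was lost in 3 of the 6 fits that left out a library, as without the first alphaKO library of day 0 (adjusted p 0.171). The WT rise was lost in 1 of 6, without the first WT library of day 0 (adjusted p 0.201). Hist1h2bc alone was called lower in WT, by -0.34 ± 0.15. That call was lost in 4 of the 6 fits that left out a library, as without the third WT library of day 0 (-0.26, adjusted p 0.16). The call was also lost with DESeq2 (-0.36, adjusted p 0.0553) and with no low-count filter (-0.34, adjusted p 0.0713).

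From day 2 to day 4 most histone genes leaned downwards. In alphaKO 6 of 30 were called, 5 lower and 1 higher, where 58.2% of all genes were, 30.1% higher and 28.1% lower. In fullKO 13 were called, all lower, where 58.5% of all genes were called, 29.6% higher and 28.9% lower. In WT 13 were called, 10 lower and 3 higher, where 59.4% were, 30.2% higher and 29.2% lower. The median log2 fold change was -0.55 in alphaKO, -0.82 in fullKO and -0.75 in WT, and over all genes it was within 0.02 of 0 in each. Hist1h4i fell in each genotype, by 0.96 ± 0.17 in alphaKO, by 1.04 ± 0.16 in fullKO and by 0.80 ± 0.17 in WT. All 5 tested H4 genes were called lower in WT, though only the calls of Hist1h4i and Hist1h4j held in every fit that left out a library. In alphaKO 1 was called (Hist1h4i) and in fullKO 3 were (Hist1h4d, Hist1h4i and Hist1h4j), and whether the genotypes differed in this was not tested. Hist1h1a fell in each genotype, with 0.189, 0.548 and 0.643 CPM at day 4 against 1.20, 1.08 and 1.62 at day 2 in alphaKO. In fullKO it had 0.812, 1.24 and 0.677 CPM against 2.08, 2.89 and 1.63, and in WT 0.943, 0.298 and 0.287 against 0.743, 2.57 and 0.937. The log2 fold changes of Hist1h1a were -1.48 ± 0.49 in alphaKO, -1.26 ± 0.41 in fullKO and -1.51 ± 0.50 in WT. The calls were lost without the first alphaKO library of day 4 (adjusted p 0.0655), the second fullKO library of day 2 (0.0567) and the second WT library of day 2 (0.232). The WT call was lost in 3 of the 6 fits that left out a library, and each of the others in 1.

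Hist1h1c and Hist3h2a did not follow this fall in WT. Hist1h1c rose there from day 2 to day 4 by 0.55 ± 0.13 (adjusted p 0.00039), and Hist3h2a by 0.67 ± 0.24 (adjusted p 0.015). The Hist3h2a rise was lost in 2 of the 6 fits that left out a library. Without the first WT library of day 2 it was 0.50 with an adjusted p of 0.105. Neither gene was called over these days in alphaKO or fullKO. Hist1h2bc fell by 0.68 ± 0.17 in alphaKO and by 0.54 ± 0.16 in fullKO and was not called in WT. Hist3h2ba rose by 1.19 ± 0.31 in alphaKO and fell by 0.78 ± 0.32 in fullKO. The fullKO fall was lost in 3 of the 6 fits that left out a library. Without the second fullKO library of day 4 it was -0.55 with an adjusted p of 0.189. The call was also lost with DESeq2 (adjusted p 0.0537) and with no low-count filter (adjusted p 0.0869). Tests of the difference in change between a knockout line and WT from day 0 to day 4 called 5 histone genes in alphaKO, 4 higher and 1 lower, where 44% of all genes were called, 24.2% higher and 19.7% lower. They called 1 in fullKO, lower, where 35.2% were called, 19.5% higher and 15.7% lower.

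Genes that control histone gene transcription and 3′ end formation are given for context, beside the share of all tested genes given above for the same comparisons. Of 23 such genes tested, 14 rose and 1 fell in alphaKO at day 4, where 28.7% of all genes were called higher and 24% lower, and 11 rose and 1 fell in fullKO, where 25.1% were higher and 24.5% lower. At day 0, 3 rose and 9 fell in alphaKO (17.7% and 20.9% of all genes), and 6 rose and 2 fell in fullKO (16.2% and 17.7%). At day 2, 9 rose and 2 fell in alphaKO (19.9% and 20.3%), and 10 rose and none fell in fullKO (23.8% and 23.8%). Ccne1, which encodes the S-phase cyclin E1, had 301, 287 and 275 CPM in alphaKO at day 0, 312 and 286 in fullKO, and 414, 419 and 397 in WT, and fell in both lines. Pou2f1, which encodes the octamer-binding factor OCT1, had 95.5, 89.9 and 93.6 CPM in alphaKO at day 4, 90.8, 84.3 and 81.3 in fullKO, and 54.7, 62.3 and 57.1 in WT. It rose by 0.68 in alphaKO and 0.56 in fullKO. Casp8ap2, a factor needed for histone gene expression, rose by 0.55 in alphaKO and 0.50 in fullKO at the same day. Slbp had 73.6, 78.0 and 69.8 CPM in alphaKO at day 4, 66.2, 70.4 and 70.9 in fullKO, and 57.9, 52.3 and 54.5 in WT.

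Against WT, 19 of the 20 replication genes rose in alphaKO and 19 rose in fullKO at day 4, where 28.7% and 25.1% of all genes were called higher. At day 2, 17 rose in alphaKO and 16 in fullKO, and none fell, where 19.9% and 23.8% of all genes were called higher. Of the 8 embryonic stem cell markers, 8 rose in alphaKO and 7 in fullKO at day 4, and their part in these list counts was not tested. Mcm3 had 287, 304 and 305 CPM in alphaKO at day 4, 254, 256 and 254 in fullKO, and 114, 110 and 111 in WT. Of 11 replication-independent histone genes, whose mRNA is polyadenylated, 9 rose and 2 fell in alphaKO and 9 rose and 1 fell in fullKO at day 4. Of all genes, 28.7% were called higher and 24% lower in alphaKO, and 25.1% and 24.5% in fullKO. The part of stem cells in this count was not tested either. H2afz, which encodes the variant H2A.Z, had 196, 216 and 204 CPM in alphaKO at day 4, 124, 138 and 131 in fullKO, and 92.5, 98.4 and 94.5 in WT.

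The promoters of 61 of the 67 genes were matched in RefSeq (GRCm38.p6). They are windows from 250 bases before to 50 after the start, and were searched on both strands for 4 motifs. CCAAT was found in 85.2% of the histone promoters and in 37.4% of all 32851. It was in every matched H1, H2A, H2B and H3 promoter and in 3 of 12 of H4. TATAAA was found in 55.7% against 13.6%. The octamer ATTTGCAT was found in 21.3% against 1.74%, in 7 of 18 H2A and 6 of 16 H2B promoters and in none of the other classes. The element AAACACA of H1 genes was found in 4 of 5 H1 promoters, and in 13.1% of the histone promoters against 7.18% of all. The 250 bases before the start are shown for Hist1h1c, the gene lower in both lines on every day, and for the Hist3 pair, which rose together at day 2 in each genotype. Capitals mark the motifs on either strand.
Hist1h1c promoter, chr13:23738557-23738806, plus strand: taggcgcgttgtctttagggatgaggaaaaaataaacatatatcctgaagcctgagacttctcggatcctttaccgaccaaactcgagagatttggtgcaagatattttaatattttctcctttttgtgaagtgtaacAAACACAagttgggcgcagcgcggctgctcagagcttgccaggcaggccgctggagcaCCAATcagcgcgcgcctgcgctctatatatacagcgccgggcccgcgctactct
Hist3h2a promoter, chr11:58954435-58954684, plus strand: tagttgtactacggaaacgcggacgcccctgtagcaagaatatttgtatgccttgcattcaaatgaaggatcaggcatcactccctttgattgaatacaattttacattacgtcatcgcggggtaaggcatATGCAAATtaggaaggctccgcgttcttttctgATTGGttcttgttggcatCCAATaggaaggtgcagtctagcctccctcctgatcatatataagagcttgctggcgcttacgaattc
Hist3h2ba promoter, chr11:58948661-58948910, plus strand: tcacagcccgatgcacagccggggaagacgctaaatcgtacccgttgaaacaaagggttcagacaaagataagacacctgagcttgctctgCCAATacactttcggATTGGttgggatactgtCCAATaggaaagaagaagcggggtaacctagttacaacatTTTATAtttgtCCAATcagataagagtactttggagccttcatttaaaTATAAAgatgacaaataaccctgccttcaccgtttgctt
Hist1h1c has CCAAT and AAACACA. Hist3h2a has CCAAT and the octamer, and Hist3h2ba has CCAAT and TATAAA. A match is a run of letters and not evidence of binding.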

How the data were processed

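Reads per gene were counted by the authors and deposited as whole-number counts for 26 libraries. RNA was extracted with an RNeasy Mini Kit and libraries were made with the KAPA Stranded mRNA-Seq kit, per the labels' protocols. Reads were aligned with STAR 2.7.1a to mm10, per the submitters' processing notes. Not given in the sources used here are the counting tool, the strand it counted and its gene annotation.

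Gene IDs were matched to GENCODE M21, 55230 of 55471. edgeR 4.0.16 fitted quasi-likelihood models to all 9 groups (TMM scaling, filterByExpr with a minimum count of 10, 18412 genes, 17 residual degrees of freedom), with Benjamini-Hochberg adjustment over all genes and a threshold of 0.05. DESeq2 1.42.0, other filters, a replicate block and leaving out each library were alternatives. The labels do not say that libraries came from separate cultures, so a p-value covers only the spread among libraries, which may be technical. No 2 libraries were identical. Histone genes named in the text are the 12 with the highest CPM per kb and, in each comparison and class, the called genes with the largest changes above 1 CPM. Up to 3 called genes of each other list are named. The members and lists were chosen with earlier results of these data known. In data simulated for alphaKO against WT at day 0 over 15980 genes, 95% of 2-fold and 82% of 1.5-fold changes were recovered. The run for fullKO, over 15978 genes, recovered 91% and 78%. In both runs the changed genes were drawn from those above 1 CPM in WT at day 0. Every gene was given the same spread between libraries beyond counting error, unlike genes with few reads. Wrong calls numbered 12 for alphaKO and 11 for fullKO. These shares are not given separately for histone genes, and only 15 of the 30 tested reached a mean of 1 CPM in a group. They therefore do not show that an uncalled histone gene was unchanged. Stem-loops and transcript ends were read from the M21 transcripts, and promoters from RefSeq (GRCm38.p6).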

Additional observations from a re-analysis of the deposited data

Results flagged for a closer look

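The change from day 0 to day 4 differed between a knockout line and WT for 6 clustered histone genes, which is what singled them out, and the test was edgeR's quasi-likelihood test of the difference in log2 fold change. In alphaKO minus WT, Hist3h2ba differed by 2.46 ± 0.58 (SE, adjusted p 0.00046) and Hist1h4i by 0.86 ± 0.26 (adjusted p 0.0055). Hist1h2bc differed by -0.78 ± 0.22 in that contrast (adjusted p 0.0035). These 3 calls held when any 1 library was left out. Hist1h2bb differed by 4.32 ± 1.78 and Hist1h2bj by 3.89 ± 1.54 (adjusted p 0.045 and 0.036), on few reads. Hist1h2bb had 0, 5 and 5 reads in alphaKO and 0, 1 and 0 in WT at day 4. Hist1h2bj had 0, 9 and 0 reads in alphaKO and 0, 0 and 1 in WT at day 4. In fullKO minus WT, Hist2h3c2 differed by -6.38 ± 2.09 (adjusted p 0.014), from 0, 1 and 0 reads in fullKO and 10, 7 and 11 in WT at day 4. Its highest group mean was that of WT at day 4, a term of this contrast. The low-count filter therefore favoured this direction, and no conclusion is drawn from it. Without the first fullKO library of day 0 the difference of Hist2h3c2 was -2.58. Fitted values on so few reads depend on the prior count and are no bound. The calls of Hist1h2bb and Hist1h2bj were each lost in 7 of the 12 fits that left out a library. The difference of Hist1h2bj was -0.78 without the second alphaKO library of day 4 (adjusted p 0.659). The call of Hist2h3c2 was lost without the first fullKO library of day 0, in a fit left with 1 fullKO library of that day.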

How the results depend on the processing

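Counts of called histone genes were recomputed with DESeq2, DESeq2-style size factors (RLE), 2 other filters, fits of only the groups compared, a replicate block and leaving out each library. Of 662 recomputed values for 75 named gene results, 575 kept their side of the threshold and 87 lost it, and none turned its direction. From the fits that left out a library, these values hold only those with the highest adjusted p, the smallest change and the largest change. They are therefore not a share of all fits. Of the 75 results, 34 lost their call in at least 1 fit that left out a library. Of 1161 recomputed values for the 101 calls in all, 1 turned, the change of Hist1h2bj in alphaKO minus that in WT. It was -0.78 without the second alphaKO library of day 4. Settings that could not test a gene give no value for it. With DESeq2 the count was 3 instead of 7 in fullKO against WT at day 0, and 0 instead of 1 for the fullKO change minus the WT change. A filter of 1 CPM in 3 libraries gave 4 instead of 7 and 4 instead of 8 in fullKO against WT at days 0 and 4, 2 instead of 0 in alphaKO against fullKO at day 2, 5 instead of 8 and 6 instead of 13 in WT at day 2 against 0 and day 4 against 2, and 3 instead of 5 and 0 instead of 1 for the changes of alphaKO and fullKO minus that of WT. With no filter, 1 was called instead of 0 in alphaKO against fullKO at day 2. Fits of only the groups compared gave 2 instead of 1 in alphaKO against WT at day 2, 4 instead of 8 in fullKO against WT at day 4, 5 instead of 0 in alphaKO against fullKO at day 2, 5 instead of 13 in WT at day 4 against 2, and 3 instead of 5 for the alphaKO change minus the WT change. The cause of these shifts was not tested. Leaving out 1 library gave 2 to 4 calls in alphaKO against WT at day 0, 1 to 3 at day 2 and 4 to 8 at day 4. It gave 3 to 8, 2 to 4 and 4 to 8 in fullKO against WT, and 3 to 9, 0 to 1 and 1 to 3 in alphaKO against fullKO, on the same days. At day 2 against 0 it gave 7 to 12 in alphaKO, 4 to 10 in fullKO and 5 to 9 in WT, and at day 4 against 2 it gave 3 to 8, 9 to 12 and 8 to 10. The changes minus that of WT gave 3 to 6 in alphaKO and 0 to 2 in fullKO.

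The replicate numbers gave no pairing: the correlation of same-numbered deviations was -0.0436 to 0.0487 over 15 comparisons. With the replicate block the count was 6 instead of 7 in fullKO against WT at day 0, 7 instead of 8 at day 4 and 6 instead of 5 in alphaKO against WT at day 4. It was 6 instead of 7 in fullKO at day 2 against 0, where Hist1h2ae was lost (adjusted p 0.0575). Of the 67 genes, 37 had too few reads to be tested.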
